A study of Mus musculus with 8 samples.

Results

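The B lineage and plasma cell genes examined here were Cd79a, Cd79b, Ms4a1, Jchain, Mzb1 and Pou2af1, which were taken by symbol and account for 6 of the 36333 genes in the deposited table. RNA came from the ventral prostate of 8 mice on the FVB/N background, each 12 months old and each sequenced as a single library. The 4 hSKP2-KI mice carried a P2A-human SKP2 coding sequence inserted into exon 1 of the endogenous probasin gene, so that human SKP2 was made under the probasin promoter of prostate epithelium. The 4 WT mice were FVB/N without the insertion. Which founder line gave the sequenced knock-in mice is not given in the sources used here. WT replicate 3 is shown apart throughout, because earlier results of these data had shown high Cd79a in that library, and the comparisons of the 6 genes are given with and without it. For genes high in that library, leaving it out raises the difference between genotypes by construction, so those results are descriptive.

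B cells carry an antigen receptor made of a membrane antibody and a pair of signalling chains, Ig-alpha and Ig-beta, encoded by Cd79a and Cd79b. After activation some B cells become plasma cells, which lose much of the receptor and secrete antibody. In glandular mucosa, plasma cells secrete IgA that is joined by the J chain and carried across the epithelium by the polymeric immunoglobulin receptor. In whole tissue, more cells of a type and more RNA per cell cannot be told apart.

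Promoter windows from RefSeq on GRCm38.p6, running from 250 bases before to 50 bases after the annotated start, were found for 3 of the 6 genes, Cd79a, Pou2af1 and Jchain. They are printed because Cd79a and Pou2af1 followed each other closely over the 8 mice whereas Jchain did not. Each is given 5′ to 3′ on the strand of the gene, and capitals mark the letters TGCAAAT.
Cd79a promoter, chr7:24897247-24897546, plus strand: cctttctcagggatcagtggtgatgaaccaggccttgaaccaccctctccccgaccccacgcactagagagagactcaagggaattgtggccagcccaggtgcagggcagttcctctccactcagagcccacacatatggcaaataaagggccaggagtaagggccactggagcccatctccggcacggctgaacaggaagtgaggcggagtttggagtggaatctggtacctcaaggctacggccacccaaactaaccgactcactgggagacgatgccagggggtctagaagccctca
Pou2af1 promoter, chr9:51213440-51213739, plus strand: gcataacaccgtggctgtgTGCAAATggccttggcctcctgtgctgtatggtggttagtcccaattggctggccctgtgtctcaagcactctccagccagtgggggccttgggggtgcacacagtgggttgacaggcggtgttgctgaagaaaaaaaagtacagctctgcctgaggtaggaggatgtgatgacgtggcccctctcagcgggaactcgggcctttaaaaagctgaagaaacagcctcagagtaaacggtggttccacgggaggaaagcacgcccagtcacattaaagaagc
Jchain promoter, chr5:88527848-88528147, minus strand: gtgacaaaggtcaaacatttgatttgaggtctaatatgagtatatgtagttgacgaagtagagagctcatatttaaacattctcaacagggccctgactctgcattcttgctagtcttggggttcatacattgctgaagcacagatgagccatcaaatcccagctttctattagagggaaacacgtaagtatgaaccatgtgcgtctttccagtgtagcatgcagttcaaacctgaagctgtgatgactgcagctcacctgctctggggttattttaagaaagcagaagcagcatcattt
The octamer ATGCAAAT, the element to which the Pou2af1 product is recruited together with OCT factors, was not present as an exact match on either strand of the 3 windows, and it was present in 1.74% of 32851 promoter windows. The EBF1 motif CCCNNGGGA likewise had no exact match in the 3 windows and was found in 6.56% of all windows. Looser forms of the EBF1 motif were not searched. A stretch such as ctcaaggga in the Cd79a window, which departs from the motif at its second letter, was therefore not counted. The shorter TGCAAAT, which lies within the octamer and was searched after the octamer gave no match, occurred once, in Pou2af1, at bases 20 to 26 of the window. It was present in 4.02% of all windows.

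Between 19333 and 20028 genes had a TPM above 0 in each library. TPM divides the reads on a gene by its transcript length and scales each library to 1000000, so the read depth behind a value is unknown. The genotype labels fitted the Skp2 row in every library, at 37.3 to 60.6 TPM in hSKP2-KI and 1.05 to 2.27 TPM in WT prostates. That row is the mouse gene (Entrez 27401), whereas the inserted sequence is human SKP2. Which of these the reads in the row came from was not tested. Probasin (Pbsn), the host gene of the insertion, was at 93.0 to 174 TPM in hSKP2-KI and 3979.8 to 9232 TPM in WT prostates. The luminal markers Epcam, Krt8 and Krt18 were present in all 8 libraries, as were the abundant secretory transcripts Sbp and Spink1. The share of TPM in Sbp and Spink1 was lower in every hSKP2-KI library than in every WT library, and with a fixed total this raises other genes. The median log2 fold change of the 13080 genes with at least 1 TPM in at least 4 libraries was 0.23, so each test was repeated after median-ratio scaling, which brings that median to -0.0071.

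The signalling chains of the B cell receptor were higher in 3 of the 4 hSKP2-KI prostates than in 3 of the 4 WT prostates, but the highest Cd79a of all was in the remaining WT library. Cd79a (Entrez 12518, chr7:24897497-24901858 on GRCm38.p6) had 5.64, 5.50, 5.96 and 1.23 TPM in hSKP2-KI replicates 1 to 4. In WT replicates 1, 2 and 4 it had 0.573, 1.71 and 0.910 TPM, and in WT replicate 3 it had 9.71 TPM. The genotypes therefore overlapped from both sides, with WT replicate 3 above all hSKP2-KI libraries and hSKP2-KI replicate 4 inside the range of the other 3 WT libraries. Cd79a averaged 4.58 ± 2.24 TPM (SD, n = 4) in hSKP2-KI and 3.23 ± 4.35 TPM (SD, n = 4) in WT prostates. The log2 fold change was 0.74 (standard error 0.56, 95% confidence interval -0.49 to 1.96, limma adjusted p = 0.296). Without WT replicate 3 the WT mean was 1.07 ± 0.586 TPM (SD, n = 3), the ratio of means was 4.30 in place of 1.42, and the log2 fold change was 1.34 (interval 0.50 to 2.18, adjusted p = 0.0317).

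Cd79b (Entrez 15985, chr11:106311341-106314562), the partner chain, had 6.30, 4.04, 2.45 and 1.21 TPM in hSKP2-KI replicates 1 to 4. Its WT values were 0.754, 0.739 and 1.05 TPM in replicates 1, 2 and 4 and 6.49 TPM in replicate 3. Every hSKP2-KI library lay above the 3 low WT libraries, and WT replicate 3 lay above all of them. The log2 fold change was 0.64 (standard error 0.48, interval -0.41 to 1.69, adjusted p = 0.285), and 1.15 without WT replicate 3 (interval 0.41 to 1.89, adjusted p = 0.0353). The ratio of mean TPM rose from 1.55 to 4.12 when that library was left out.

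Ms4a1 (Entrez 12482, chr19:11249679-11266149) encodes CD20, a membrane protein of mature B cells that is lost in plasma cells. It was the lowest of the 3 B cell genes, with 1.56, 1.04, 1.74 and 0.397 TPM in hSKP2-KI replicates 1 to 4. In WT prostates it stood at 0.123, 0.265 and 0.503 TPM in replicates 1, 2 and 4 and at 2.51 TPM in replicate 3. The order of the libraries was close to that of Cd79a, with hSKP2-KI replicate 4 again among the low WT libraries. The log2 fold change of 0.35 (standard error 0.34, interval -0.39 to 1.10, adjusted p = 0.404) became 0.72 without WT replicate 3 (adjusted p = 0.0516).

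Jchain (Entrez 16069, chr5:88519809-88527897), which encodes the chain that joins polymeric IgA and IgM, was the most abundant of the 6 genes per transcript length. It had 26.8, 25.3, 32.8 and 39.8 TPM in hSKP2-KI replicates 1 to 4, a mean of 31.2 ± 6.61 TPM (SD, n = 4). The WT libraries had 8.27, 19.9 and 24.2 TPM in replicates 1, 2 and 4 and 45.7 TPM in replicate 3. In contrast to the B cell genes, Jchain in hSKP2-KI replicate 4 was the highest of its genotype, and all 4 hSKP2-KI libraries lay above the 3 low WT libraries. For Jchain the log2 fold change was 0.54 (standard error 0.38, interval -0.30 to 1.37, adjusted p = 0.263), and 0.90 without WT replicate 3 (interval 0.24 to 1.56, adjusted p = 0.0525).

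Mzb1 (Entrez 69816) encodes an endoplasmic reticulum chaperone cofactor of marginal zone B cells and plasma cells that assists antibody assembly. Its values were 1.34, 1.01, 2.49 and 1.60 TPM in hSKP2-KI replicates 1 to 4, and 0.440, 1.60 and 0.730 TPM in WT replicates 1, 2 and 4, with 2.97 TPM in WT replicate 3. WT replicate 2 lay within the hSKP2-KI range, so the genotypes overlapped also without WT replicate 3. For Mzb1 the log2 fold change was 0.18 (standard error 0.29, interval -0.46 to 0.83, adjusted p = 0.620). It was 0.46 without WT replicate 3 (adjusted p = 0.172), -0.032 without WT replicate 1 and -0.099 after quantile normalization, so Mzb1 had no stable direction.

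Pou2af1 (Entrez 18985, chr9:51213690-51240079) encodes OCA-B, the B lineage coactivator that binds OCT1 and OCT2 on octamer elements and is needed for germinal centres. It had 1.36, 1.59, 1.91 and 0.666 TPM in hSKP2-KI replicates 1 to 4, and 0.296, 0.851 and 0.471 TPM in WT replicates 1, 2 and 4, with 2.91 TPM in WT replicate 3. As for Cd79a, 3 of the 4 hSKP2-KI libraries exceeded the 3 low WT libraries and replicate 4 did not. For Pou2af1 the log2 fold change was 0.27 (standard error 0.31, interval -0.42 to 0.97, adjusted p = 0.485), 0.62 without WT replicate 3 (adjusted p = 0.0600) and -0.0061 after quantile normalization.

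**Figure D1:**
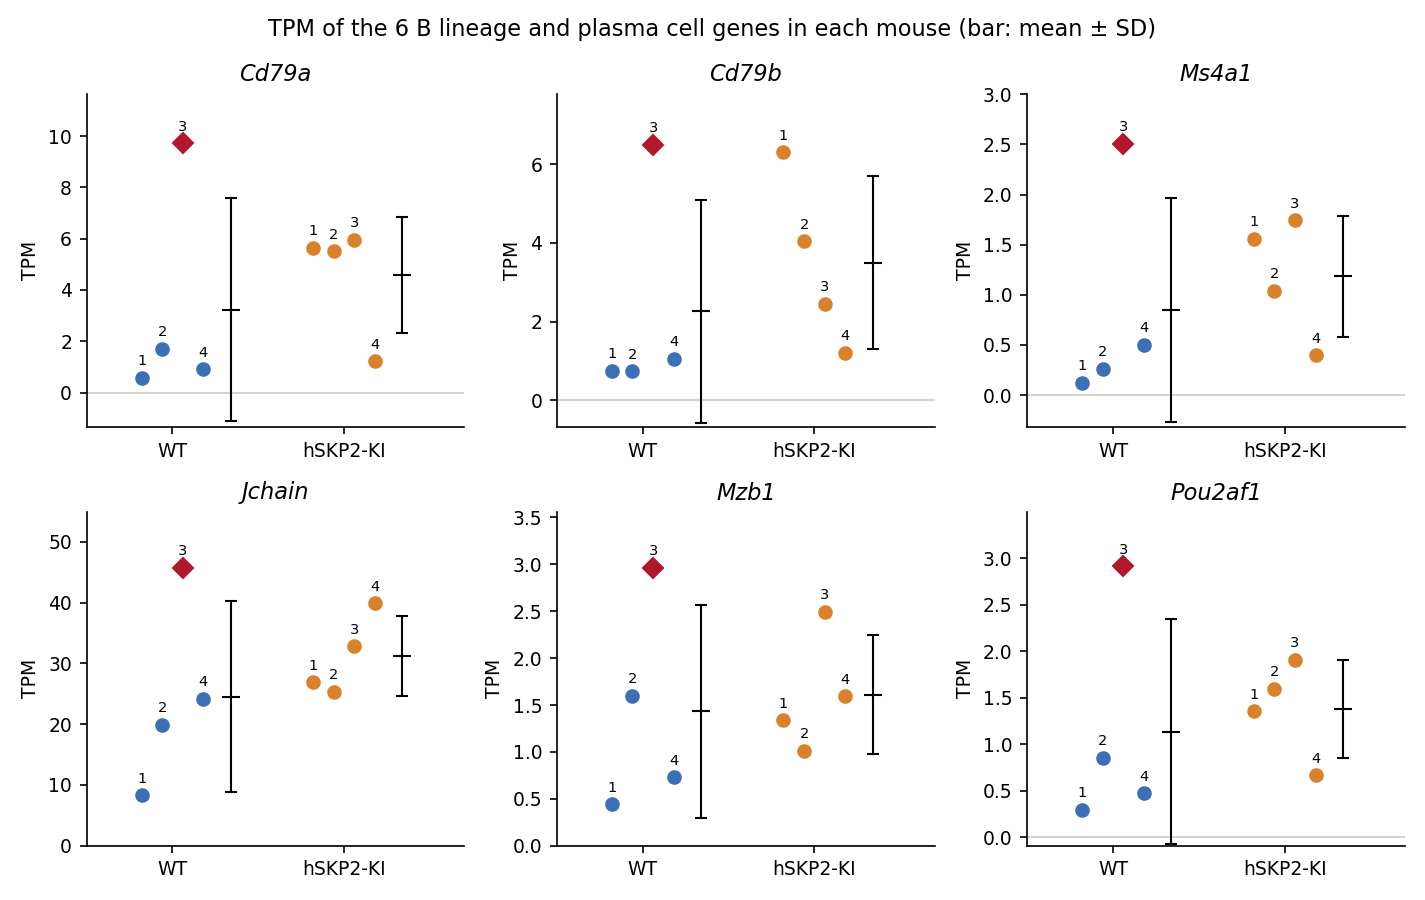
TPM of the 6 genes in each WT (blue) and hSKP2-KI (orange) mouse, with the replicate number above each point, WT replicate 3 as a red diamond, and the mean and SD of each genotype as a black bar. WT replicate 3 is the highest point in all 6 panels, from 2.51 TPM of Ms4a1 to 45.7 TPM of Jchain, and hSKP2-KI replicate 4 lies with the low WT mice for Cd79a, Ms4a1 and Pou2af1.

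All 6 genes passed the filter of 1 TPM in 4 libraries, Ms4a1 and Pou2af1 with exactly 4, namely hSKP2-KI replicates 1 to 3 and WT replicate 3. The same genes were kept in the fit without WT replicate 3. There Ms4a1 and Pou2af1 reached 1 TPM only in hSKP2-KI libraries, so their adjusted p-values in that fit are no support for a difference. With all 8 mice, limma called 0 of the 6 genes at an adjusted p under 0.05, and 0 had an unadjusted p under 0.05. Among all 13080 tested genes, 32.7% were called higher and 1.23% lower at that threshold, and 6.92% and 4.25% after median-ratio scaling, where again 0 of the 6 were called. Every hSKP2-KI library exceeded every WT library for 0 of the 6 genes and for 34.0% of all tested genes. A two-sided exact permutation test of each gene over the 70 assignments of mice gave p = 0.429 for Cd79a, 0.314 for Cd79b, 0.457 for Ms4a1, 0.371 for Jchain, 0.629 for Mzb1 and 0.514 for Pou2af1. The intervals reach 1.96 for Cd79a and 0.83 for Mzb1 on the log2 scale and so do not exclude differences of that size.

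Without WT replicate 3, Cd79a and Cd79b were called higher, which is 2 of 6 genes against 22.0% of all tested genes, and Ms4a1, Jchain, Mzb1 and Pou2af1 were not called. That library had the highest value of all 6 genes and was set apart for its Cd79a. Leaving it out therefore had to raise every difference, and the p-values without it are no independent test of genotype. Every hSKP2-KI library exceeded the 3 remaining WT libraries for Cd79b and Jchain, 2 of 6 genes, against 36.4% of all tested genes. After median-ratio scaling as well, 0 of the 6 genes were called, against 5.05% of all tested genes called higher, and the log2 fold changes ran from 0.33 for Mzb1 (adjusted p = 0.424) to 1.18 for Cd79a (adjusted p = 0.0910). The exact permutation test over the 35 assignments of 7 mice gave p = 0.0571 for Cd79b and Jchain, which is the smallest it allows, 0.114 for Cd79a, Ms4a1 and Pou2af1, and 0.229 for Mzb1. No other single mouse brought any of the 6 genes to a call when it was left out.

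**Figure D2:**
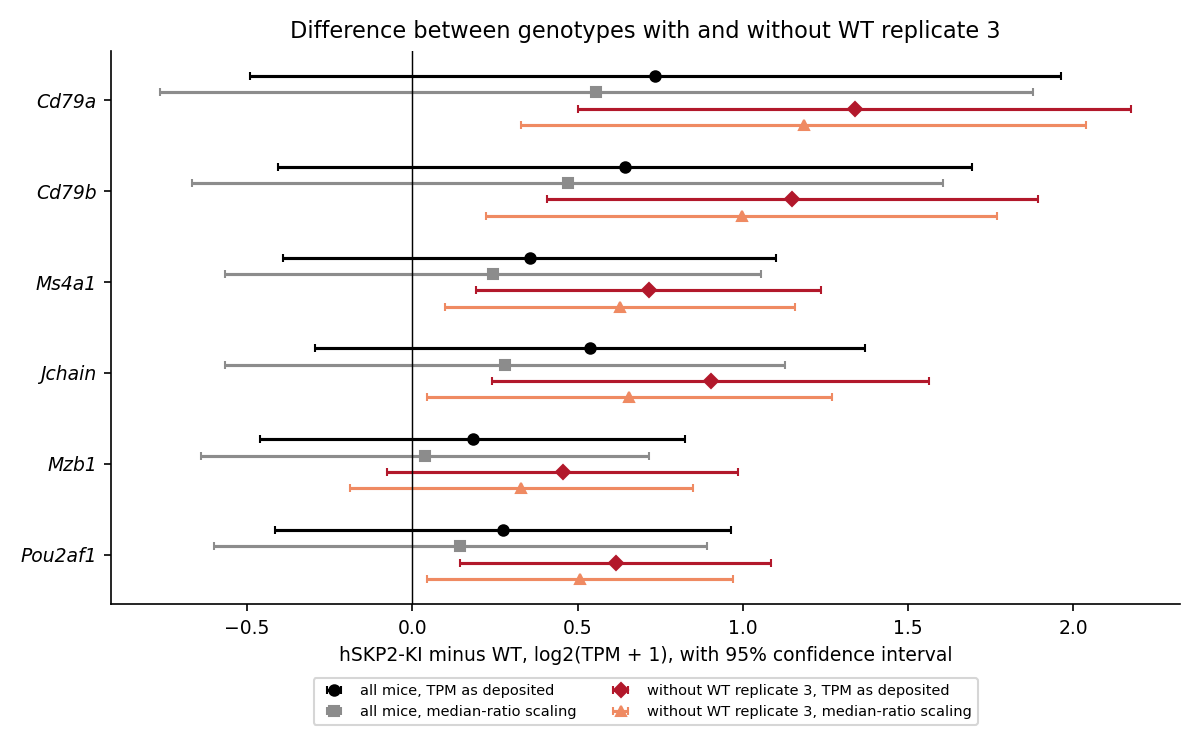
Difference between genotypes (hSKP2-KI minus WT) on the log2(TPM + 1) scale, as the limma estimate with its 95% confidence interval, for all 8 mice and without WT replicate 3, each with the TPM as deposited and after median-ratio scaling. With all mice every interval spans 0, from -0.49 to 1.96 for Cd79a, and without WT replicate 3 the interval of Cd79a runs from 0.50 to 2.18 while that of Mzb1 still spans 0.

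The B cell and plasma cell genes did not keep a fixed proportion, as ratios of TPM within a mouse show independently of scaling. Jchain was 4.76, 4.60 and 5.51 times Cd79a in hSKP2-KI replicates 1 to 3 and 4.71 times in WT replicate 3. It was 14.4, 11.6 and 26.6 times Cd79a in WT replicates 1, 2 and 4 and 32.4 times in hSKP2-KI replicate 4. The ratio thus ranged 7.04-fold over the 8 mice, and its high and low values were not divided by genotype. Mzb1 gave the same separation of libraries, at 0.184 to 0.419 times Cd79a in hSKP2-KI replicates 1 to 3, 0.305 in WT replicate 3, 0.768 to 0.933 in the other WT libraries and 1.30 in hSKP2-KI replicate 4. Pou2af1 over Cd79a separated the same libraries over a narrower span, at 0.240 to 0.320 in hSKP2-KI replicates 1 to 3 and WT replicate 3, 0.496 to 0.517 in the other WT libraries and 0.541 in hSKP2-KI replicate 4. All of these ratios share Cd79a as denominator, so their separations are not independent of each other. Dividing a gene that varies less than Cd79a by Cd79a tends to sort the libraries in this way. The separations therefore largely restate the split in Cd79a and are no separate evidence that B cell and plasma cell genes part. The libraries with low ratios had 5.50 TPM of Cd79a or more, and the others had 1.71 TPM or less. Cd79b over Cd79a, both chains of one receptor, showed no such separation and ranged from 0.411 to 1.32. Ms4a1 over Cd79a ranged from 0.155 to 0.553. Low TPM of Ms4a1 and Cd79a make these ratios imprecise to an extent that TPM alone cannot show.

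**Figure D3:**
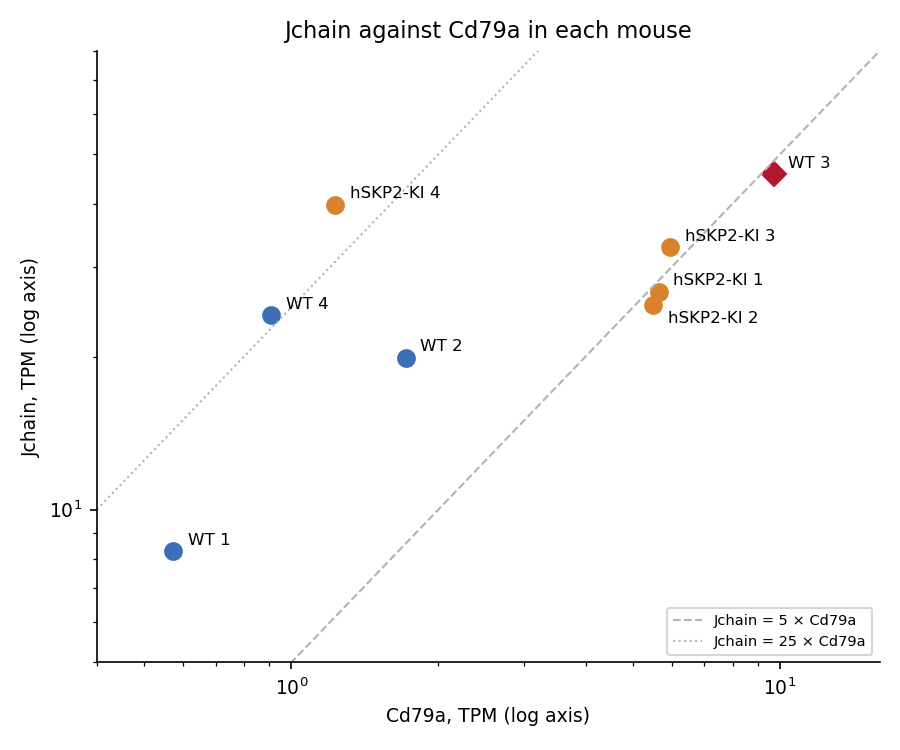
Jchain against Cd79a in TPM, both on log axes, with 1 point per mouse, WT in blue, hSKP2-KI in orange, WT replicate 3 as a red diamond and grey lines of constant ratio. hSKP2-KI replicates 1 to 3 and WT replicate 3 have ratios of 4.60 to 5.51, and hSKP2-KI replicate 4 lies with WT replicates 1, 2 and 4 at 11.6 or more.

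Relative to Ptprc, the common leukocyte antigen CD45, Cd79a was 1.52, 0.710, 1.32 and 0.308 in hSKP2-KI replicates 1 to 4 and 0.359, 0.667 and 0.456 in WT replicates 1, 2 and 4, with 1.83 in WT replicate 3. The hSKP2-KI values thus extended below and above those of the 3 low WT libraries. Jchain over Ptprc was 3.26 to 9.98 in hSKP2-KI prostates, 5.19 to 12.1 in the 3 low WT libraries and 8.64 in WT replicate 3, with the genotypes overlapping over most of that span.

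Among the 10 genes whose log2(TPM + 1) over the 8 mice was most like Cd79a were, in order of Pearson correlation, Pou2af1, Qrsl1, Il21r, Ms4a1, Rac2, D130017N08Rik, Smap2, Kif21b and Cd79b, with r from 0.976 to 0.912. These correlations describe 8 libraries that share genotype and scaling, and no test was made of them. Of these, Pou2af1, Ms4a1 and Cd79b are members, Il21r encodes the interleukin 21 receptor of lymphocytes and Rac2 a GTPase of blood cells. Without WT replicate 3, Pou2af1 and Cd79a kept r = 0.976, and after median-ratio scaling r was 0.971. Qrsl1 and Smap2 fell to r = 0.511 after that scaling. Mzb1 was in place 173 of the tested genes by likeness to Cd79a (r = 0.724) and Jchain in place 490 (r = 0.623).

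The 10 genes most like Jchain were Pik3cb, Gm40496, Cdca4, Gm41077, Sh3rf1, Slc37a3, Mcur1, Arhgap44, Rufy2 and Acadsb, with r from 0.958 to 0.920, and 0 of them were members or other listed B cell genes. Cxcl13, the B cell chemokine, was next in place 11 (r = 0.915, and 0.892 without WT replicate 3). Both lists depended on the libraries and the scaling. Without WT replicate 3, 2 of the 10 genes most like Cd79a and 0 of the 10 most like Jchain were still in the list, and after median-ratio scaling 7 and 2 of the 10 were. Mzb1, the other antibody secretion gene, was in place 317 by likeness to Jchain.

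The other B cell genes followed the same libraries as Cd79a, at levels mostly under 1 TPM. Of 16 such genes, 13 did not pass the filter on low TPM, and of the 3 tested, Bank1 was called higher and the other two, Cd37 among them, were not, beside 32.7% of all tested genes called higher. Their median log2 fold change was 0.74, beside 0.23 over all tested genes. WT replicate 3 had the highest value of all 8 mice for 14 of the 16, as it did for all 6 members, against 2.59% of the tested genes. Because that library was set apart for high Cd79a, its place in the 6 members was in part known beforehand. Pax5, the B cell identity factor, was at 0.716 TPM in WT replicate 3, at 0.0105 to 0.0565 TPM in the other WT libraries and at 0.111 to 0.365 TPM in hSKP2-KI prostates. Within the hSKP2-KI mice, replicate 4 had the lowest value for 12 of the 16 genes, against 19.0% of all tested genes. The shares of 2.59% and 19.0% cover only genes that passed the filter, whereas 13 of the 16 did not, so they are not a like background.

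Bank1, an adaptor of B cell receptor signalling, departed from this pattern. It had 3.28, 3.16, 6.27 and 8.23 TPM in hSKP2-KI replicates 1 to 4 and 0.625, 4.46 and 0.909 TPM in WT replicates 1, 2 and 4, with 2.57 TPM in WT replicate 3. Its highest value was thus in hSKP2-KI replicate 4, where Cd22 and Cd79a were at their lowest among hSKP2-KI libraries. Its log2 difference was 1.08 (standard error 0.38, adjusted p = 0.0488), and the call was lost without WT replicate 3 (adjusted p = 0.0626) and after median-ratio scaling (adjusted p = 0.161). Cd37, a tetraspanin of B cells and other leukocytes, changed by 0.74 on the log2 scale (adjusted p = 0.0802), and by 1.05 without WT replicate 3 (adjusted p = 0.0144).

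**Figure D4:**
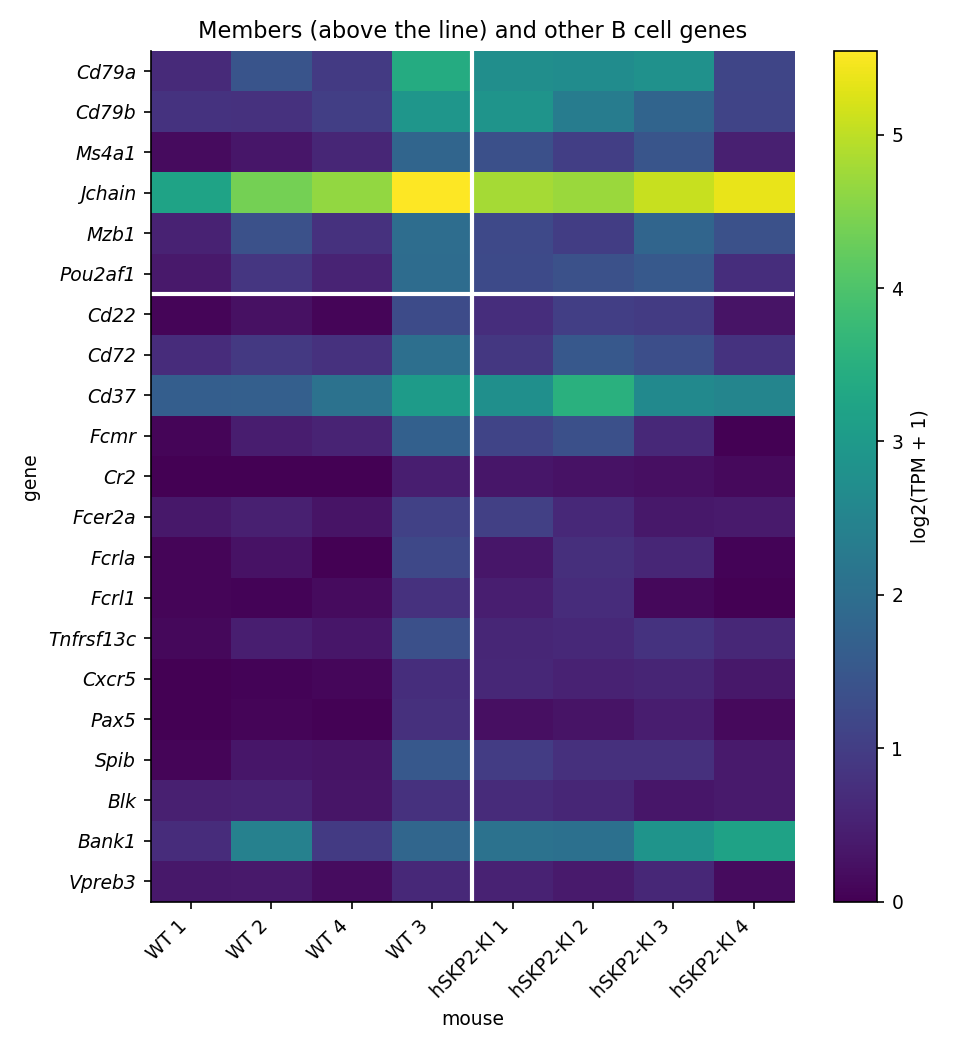
Heat map of log2(TPM + 1) for the 6 members (above the horizontal line) and other B cell genes (rows) in each mouse (columns), with WT left and hSKP2-KI right of the vertical line and WT replicate 3 placed last among the WT mice. WT replicate 3 is the brightest column for every gene shown except Cd37 and Bank1, and hSKP2-KI replicate 4 is the darkest hSKP2-KI column for most of the genes but the brightest for Jchain and Bank1.

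Genes of B cell precursors were at or near 0. Rag1 and Dntt, which act in antigen receptor rearrangement, were listed at 0 in all 8 libraries, Rag2 reached 0.0488 TPM in 1 library and Igll1 0.341 TPM in 1 library. Vpreb1, a surrogate light chain gene, lay between 0 and 1.04 TPM. None of these 5 genes was tested.

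The antibody genes themselves were not measured by this table. All 12 immunoglobulin constant region genes, Ighm, Ighd, Igha, Ighg1, Ighg2b, Ighg2c, Ighg3, Ighe, Igkc, Iglc1, Iglc2 and Iglc3, were listed at 0 in all 8 libraries. The same held for all 247 V, D and J rows of the immunoglobulin loci, and 0 of these 259 rows has a RefSeq transcript accession on GRCm38.p6. Since Jchain reached 45.7 TPM and Cd79a 9.71 TPM in the same libraries, the 0 in these rows cannot be read as absence of antibody transcripts, and the antibody class could not be determined. The 228 T cell receptor rows were likewise all at 0.

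Genes known from plasma cells fell into an abundant and a scarce group. Of 11 such genes 7 were tested, 2 were called higher and 0 lower, a share near the 32.7% of all tested genes called higher, with a median log2 fold change of 0.21 beside 0.23 over all tested genes. Several of the abundant ones act in the secretory pathway, which gland epithelium also uses. Xbp1, the transcription factor of secretory cells, lay between 176 and 263 TPM, and Sdc1, which encodes CD138, between 41.5 and 60.5 TPM, with no member of the B cell receptor above 9.71 TPM. Derl3, of endoplasmic reticulum associated degradation, rose from 107 ± 13.9 to 165 ± 29.0 TPM (SD, n = 4 each), or 0.62 on the log2 scale (adjusted p = 0.00638), which became 0.35 after median-ratio scaling (adjusted p = 0.0886) and was 0.60 without WT replicate 3 (adjusted p = 0.0175). Txndc5, a protein disulfide isomerase, rose by 0.30 on the log2 scale (adjusted p = 0.0240), and the difference was 0.035 after that scaling (adjusted p = 0.792). The call of Txndc5 was lost without WT replicate 3 (adjusted p = 0.0515). The scarce ones included Tnfrsf17, the plasma cell receptor BCMA, at 0.116 to 0.469 TPM, Prdm1 at 0.196 to 0.622 TPM and Irf4 at 0.441 to 1.11 TPM, and none of these 3 passed the filter. Tnfrsf13b, which encodes the receptor TACI, had 0.900 to 1.51 TPM in hSKP2-KI and 0.256 to 0.653 TPM in WT replicates 1, 2 and 4. In WT replicate 3 it had 1.37 TPM (log2 fold change with all mice 0.43, limma adjusted p = 0.0977). Without that library the limma adjusted p was 0.0278, but Tnfrsf13b then reached 1 TPM only in hSKP2-KI libraries. That value is therefore no support for a difference.

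Of 11 genes of B cell receptor signalling, 9 were tested, 2 were called higher and 0 lower, beside 32.7% of all tested genes called higher, and 0 were called after median-ratio scaling. Without WT replicate 3, 3 of the 9 were called higher, Syk, Plcg2 and Dok3, beside 22.0% of all tested genes. Dok3, called only there, had its highest value of all 8 libraries in WT replicate 3. Leaving that library out therefore had to raise its difference. Over the 9 tested genes with all mice, the median log2 fold change was 0.49, beside 0.23 over all tested genes. Syk, the kinase that binds the phosphorylated Cd79a and Cd79b chains, had 1.96 to 4.47 TPM in hSKP2-KI prostates, 0.835 to 1.05 TPM in WT replicates 1, 2 and 4 and 2.14 TPM in WT replicate 3 (log2 fold change 0.79, adjusted p = 0.0234, and 0.0132 without WT replicate 3). Plcg2, the phospholipase downstream, rose by 0.64 on the log2 scale (adjusted p = 0.00932, and 0.0167 without WT replicate 3), with every hSKP2-KI library above every WT library. Blnk, the adaptor between them, stood at 53.8 to 75.4 TPM in the 8 libraries, above the receptor chains in every library, and differed by 0.090 on the log2 scale (adjusted p = 0.506). Btk, the kinase of the same step, was below the filter, at 0.376 to 2.53 TPM. Which cell types gave the transcripts of these signalling genes was not tested.

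Among the genes that attract and sustain B and plasma cells, every hSKP2-KI library exceeded every WT library for Ccl21a, Tnfsf13, Tnfsf13b and Lta. That is 4 of 12 genes, a share near the 34.0% of all tested genes, which covers only genes that passed the filter. Lta, which encodes lymphotoxin alpha, did not pass the filter and had 0.749 to 1.47 TPM in hSKP2-KI and 0.310 to 0.709 TPM in WT prostates. Of the 12 genes 8 were tested, 4 were called higher (Ccl21a, Tnfsf13, Tnfsf13b and Cxcl12) and 0 lower, beside 32.7% of all tested genes called higher, and Ccl21a and Tnfsf13 were still called after median-ratio scaling. Their median log2 fold change was 0.69, beside 0.23 over all tested genes. Ccl21a, a chemokine of lymphatic vessels and lymphoid stroma that binds CCR7, had 87.9, 66.7, 67.5 and 89.9 TPM in hSKP2-KI replicates 1 to 4 and 17.4, 42.3, 25.5 and 39.6 TPM in WT replicates 1 to 4. The genotypes did not overlap, WT replicate 3 was second lowest, and the log2 fold change was 1.36 (standard error 0.24, adjusted p = 0.00355) and 1.10 after median-ratio scaling (adjusted p = 0.0138), with an adjusted p of 0.0108 without WT replicate 3. Tnfsf13, which encodes the plasma cell survival factor APRIL, had 16.5 to 18.5 TPM in hSKP2-KI and 9.60 to 11.4 TPM in WT prostates, again without overlap (log2 fold change 0.66, standard error 0.087, adjusted p = 0.00110, and 0.41 after scaling, adjusted p = 0.0117). The adjusted p of Tnfsf13 without WT replicate 3 was 0.00375. The B cell survival factor BAFF, encoded by Tnfsf13b, had 1.53 to 2.27 TPM against 1.06 to 1.26 TPM (adjusted p = 0.0146, 0.0972 after scaling and 0.0271 without WT replicate 3). Cxcl12, the ligand of CXCR4, rose by 0.71 on the log2 scale (adjusted p = 0.0332, but 0.159 after scaling and 0.0889 without WT replicate 3). Of the 8 tested genes 6 were called higher without WT replicate 3, beside 22.0% of all tested genes. Cxcl13, Ccl19 and Ltb, called only there, were highest among the WT mice in WT replicate 3. Leaving that library out therefore had to raise their differences, and Ccl19 then reached 1 TPM only in hSKP2-KI libraries. So the count of 6 is no support for a difference between genotypes.

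Cxcl13, which draws B cells through CXCR5, had 15.0, 10.6, 8.98 and 13.7 TPM in hSKP2-KI replicates 1 to 4, 1.31, 3.76 and 4.97 TPM in WT replicates 1, 2 and 4 and 19.1 TPM in WT replicate 3. It thus shared with the 6 members the high value in WT replicate 3, and differed from Cd79a in being high in hSKP2-KI replicate 4. On the log2 scale Cxcl13 differed by 1.09 (standard error 0.50, adjusted p = 0.106), and without WT replicate 3 the adjusted p was 0.00683. Pigr, the receptor that carries J chain bound IgA into the gland lumen, was the most abundant of the list at 568 to 1118 TPM, with no call (log2 fold change -0.18, adjusted p = 0.472). Il6 and Il10 were at 0 to 0.137 TPM.

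**Figure D5:**
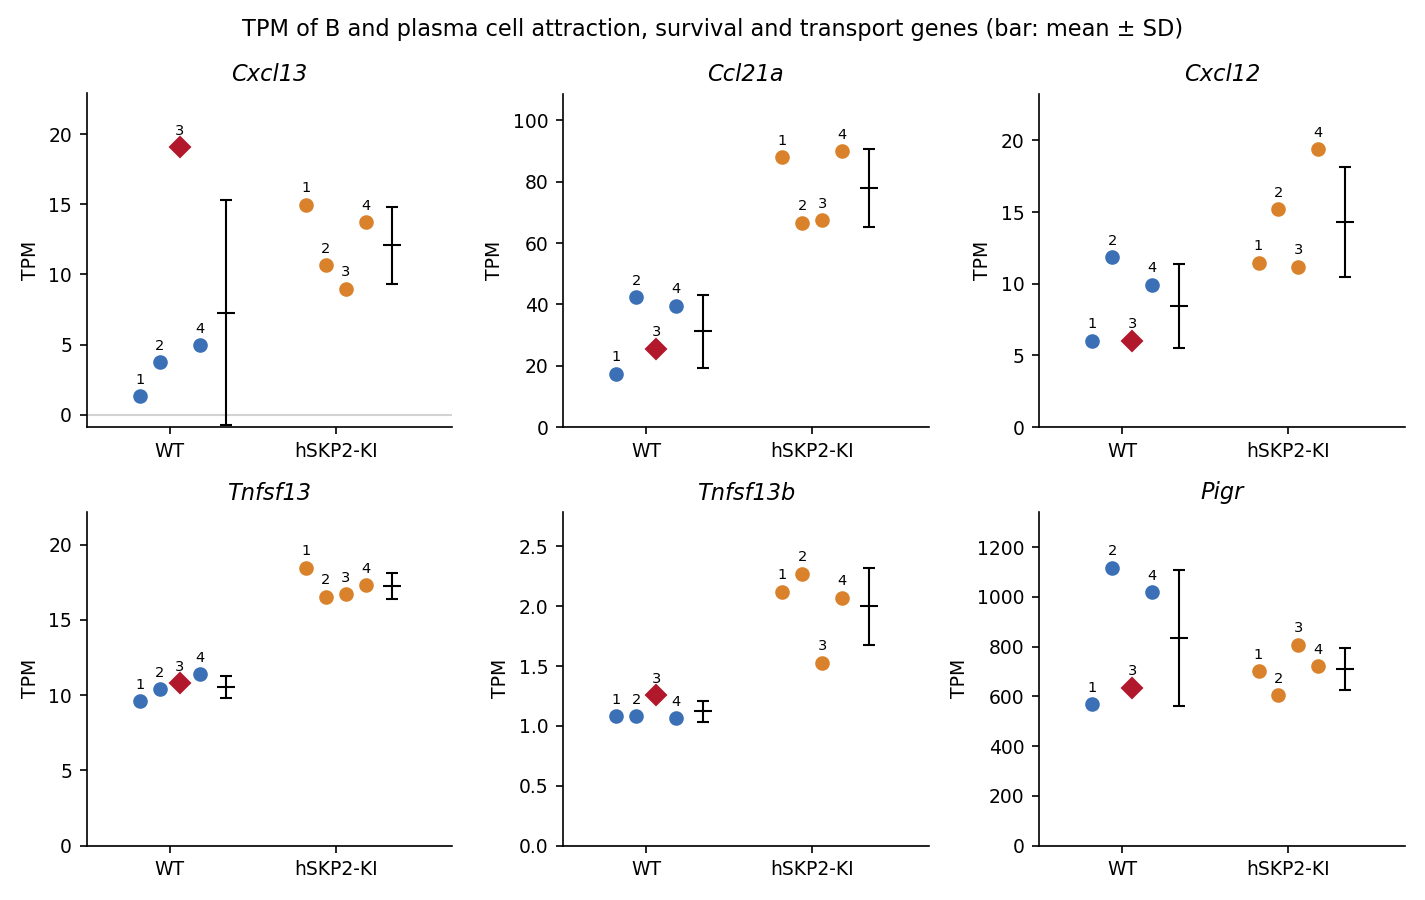
TPM of the B cell chemokines Cxcl13, Ccl21a and Cxcl12, the survival factors Tnfsf13 and Tnfsf13b and the IgA transporter Pigr in each WT (blue) and hSKP2-KI (orange) mouse, with replicate numbers, WT replicate 3 as a red diamond, and mean and SD as a black bar. Ccl21a, Tnfsf13 and Tnfsf13b do not overlap between genotypes, and Cxcl13 is highest in WT replicate 3 at 19.1 TPM.

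Markers of other cell types moved with the libraries to different degrees. WT replicate 3 was the highest WT library for 7 of 7 macrophage markers, 5 of 7 T cell markers and Ptprc, beside 14.0% of all tested genes, and had the lowest value of all 8 libraries for 4 of the 5 adipocyte markers. The summed TPM of the macrophage markers was 193 in WT replicate 3, 93.5 to 133 in the other WT libraries and 212 to 433 in hSKP2-KI prostates. That of the T cell markers was 9.94, 5.05 to 6.25 and 9.71 to 11.4 in the same order. Cd79a in WT replicate 3 was 9.12 times the mean of the other WT libraries, Cd79b 7.66 times, Ms4a1 8.43 times, Pou2af1 5.40 times, Mzb1 3.21 times and Jchain 2.62 times. The lymph node venule markers Glycam1, Madcam1 and Chst4 summed to 1.23 TPM in WT replicate 3, to 0 to 0.0526 TPM in the other WT libraries and to 0 to 1.74 TPM in hSKP2-KI prostates. The erythrocyte markers, which follow blood, summed to 663 TPM in WT replicate 3, the lowest of all 8 libraries. The summed adipocyte markers were 80.5 TPM in WT replicate 3, 368 to 439 TPM in the other WT libraries and 77.8 to 653 TPM in hSKP2-KI prostates. Of the plasmacytoid dendritic cell markers, Siglech lay between 0.271 and 0.754 TPM, and 1 of 5 was tested and 0 called. The part of these cell types in the values of the 6 genes was not tested. In these counts 2 of 5 tested T cell, 6 of 7 macrophage and 3 of 4 tested erythrocyte markers were called higher with all mice, beside 32.7% of all tested genes, and 0 of each after median-ratio scaling. Of the 7 luminal markers 2 were called higher and 1 lower, and of the 5 adipocyte markers 0 were called.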

How the data were processed

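RNA of the ventral lobes of 4 hSKP2-KI and 4 WT prostates was sequenced. The authors trimmed and mapped the paired-end reads in CLC software (version and counting options not given in the sources used here) and deposited TPM, 1 column per mouse. The submitters' processing notes name the builds mm10 and GRCm38. The table holds 0 columns of other samples, and no 2 libraries had identical values.

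The 13080 of 36333 genes that reached 1 TPM in 4 or more of the 8 libraries entered a limma fit (limma 3.58.1, R 4.3.3, variance trend on) of log2(TPM + 1) on genotype over all 8 mice. Adjusted p is the Benjamini-Hochberg value over these genes, with a threshold of 0.05. The added 1 makes fold changes of low genes smaller than the ratio of their TPM. Each member was also compared by a two-sided exact permutation test. The p-values weigh the genotype difference against the spread between these mice. Nothing says how mice were housed or collected, so an effect shared by the mice of a genotype could not be told apart from genotype. Alternatives were a pseudocount of 0.1, no filter, a mean TPM of at least 5, 3 other scalings, weights for sample quality, a block for the replicate number, robust variance moderation and each mouse left out in turn, and, chosen after seeing the data, WT replicate 3 left out together with median-ratio scaling.

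The members and lists were chosen with earlier results of these data known. Named genes were the members, the called genes and the 2 most abundant genes of each list, all immunoglobulin constant region genes and the 10 genes most like Cd79a and Jchain. Some genes under that rule are not reported here. Outside that rule, genes named for their place in the lists were chosen after their values were seen. Genes were matched to RefSeq by Entrez identifier. Protein motifs named in the plan were not searched, since no protein sequences were used here. Figures were drawn with matplotlib 3.10.9.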

Additional observations from a re-analysis of the deposited data

Results flagged for a closer look

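In groups of 4 mice, a library was singled out when its distance from the nearest other library divided by the range of the group exceeded Dixon's 95% limit for 4 values. This was so in 21 of 93 groups from 49 named genes. The limit corresponds to about 1 in 20 for independent, normally distributed values. TPM need not be normally distributed, and genes of a library are not independent of each other. Where all other libraries of a group were at 0, any value was flagged, as for Igll1, Cox6a2, Glycam1 and Madcam1. The lists were also chosen with earlier results known, so the 21 of 93 cannot be compared with chance.

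Among the B lineage genes, Cd79a stood apart in WT replicate 3 at 9.71 TPM (others 0.573 to 1.71) and in hSKP2-KI replicate 4 at 1.23 TPM (others 5.5 to 5.96). Cd79b stood apart in WT replicate 3 at 6.49 TPM (others 0.739 to 1.05), and Ms4a1 in the same library at 2.51 TPM (others 0.123 to 0.503). Jchain, Mzb1 and Pou2af1 had no library beyond the limit.

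WT replicate 3 also stood apart for Syk (2.14 TPM), Tnfsf13b (1.26 TPM) and Glycam1 (1.03 TPM, listed at 0 in the other WT mice). hSKP2-KI replicate 2 stood apart for the macrophage genes C1qa (128 TPM), C1qb (87.5 TPM) and Cd68 (59.1 TPM) and for Madcam1 (0.425 TPM), and hSKP2-KI replicate 4 for Pbsn (174 TPM), Cfd (460 TPM), Igll1 (0.341 TPM) and Cox6a2 (7.32 TPM). WT replicate 2 stood apart for Hbb-bs (832 TPM), Hba-a1 (1408 TPM), Cox6a2 (2.35 TPM) and, on the low side, Vpreb1 (0.355 TPM). Epcam was high in hSKP2-KI replicate 1 (439 TPM) and Sbp in hSKP2-KI replicate 3 (218476 TPM).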

How the results depend on the processing

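The number of members called higher was 0 under every alternative that kept all 8 mice, and from 0 to 2 when mice were left out in turn, where the 2 (Cd79a and Cd79b) came without WT replicate 3. It was 0 without WT replicate 3 after median-ratio scaling. The number called lower was 0 under all alternatives. Without single mice the log2 fold change ran from 0.42 to 1.34 for Cd79a, 0.37 to 1.15 for Cd79b, 0.17 to 0.72 for Ms4a1, 0.12 to 0.90 for Jchain, -0.032 to 0.46 for Mzb1 and 0.08 to 0.62 for Pou2af1, with the highest value without WT replicate 3 in each case. The direction turned for Mzb1 under quantile normalization (-0.099) and without WT replicate 1 (-0.032), and for Pou2af1 under quantile normalization (-0.0061), and in no other alternative run for the 6 genes. The cause was not tested. Over all tested genes, the 4433 calls (4272 higher, 161 lower) became 1461 (905 higher, 556 lower) after median-ratio scaling, 1317 (709 and 608) after quantile normalization, 1321 (887 and 434) without the 20 most abundant genes and 974 (661 and 313) without WT replicate 3 after median-ratio scaling. Of the 25 other called genes, 21 lost their call after median-ratio scaling, 6 without WT replicate 3 and 11 without WT replicate 1, and 0 changed direction under any alternative. With the replicate block, 5128 genes and 0 members were called. The deviations of mice of the same number had correlations of 0.22, -0.11, 0.17 and -0.01. Mice of unlike number were not compared, so whether the numbers pair the mice cannot be told from these values. TPM without read counts limits what can be said of genes under 1 TPM. With a minimum mean TPM of 5, Jchain was the only member left.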
